A study of Homo sapiens with 4 samples.

Results

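Hypoxia-program cells were the 1545 of 15452 cells, in 4 libraries made from the prostate cancer cell line LNCaP or from lines derived from it, that devoted the largest part of their RNA to 9 hypoxia-induced genes. The score of a cell was 10000 times the summed UMIs (unique molecular identifiers, which count RNA molecules rather than reads) of NDUFA4L2, NDRG1, MIR210HG, BNIP3, PLOD2, P4HA1, PFKP, ALDOC and CA9 divided by all its UMIs, and the top 10% of cells over the pooled libraries were taken. Cells entered with at least 1500 genes, at least 5000 UMIs and under 20% of UMIs from mitochondrially encoded genes. The name comes from the genes alone, since the labels give no oxygen setting. These 9 genes chose the cells, and all genes were read in the same cells, so differences between the chosen cells and the others are a description and carry no test.

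The groups, with 1 library each, were parental LNCaP given the solvent DMSO (0.1%, 48 h), LNCaP given 10 µM of the antiandrogen enzalutamide (ENZ) for 48 h (LNCaP-ENZ48), and the ENZ-resistant derivatives RES-A and RES-B. Both resistant lines came from LNCaP by long culture with an antiandrogen, RES-A with ENZ and RES-B with the related compound RD-162, and both were held in 10 µM ENZ. LNCaP is a luminal-like line that grew from a metastasis and responds to androgen. Living cells were sorted before droplet 3' sequencing. With 1 library a group, a difference between libraries cannot be told apart from a difference between cultures or library preparations, and every interval below is a 95% exact interval that covers counting error only. The kept cells of a library held 55696198 to 68158371 UMIs in all, with a median of 12164 to 26502 per cell. Any pair of libraries shared 2 to 10 barcodes among kept cells and 2 to 12 before the filter.

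When oxygen is short, the prolyl hydroxylases that mark the transcription factor HIF1A for destruction by the VHL ubiquitin ligase slow down, HIF1A accumulates, pairs with ARNT and binds promoters that carry the core motif ACGTG or GCGTG. Its targets move cells from respiration to glycolysis (PGK1, LDHA, PFKP, ALDOC), withdraw mitochondria (BNIP3, BNIP3L), hydroxylate collagen (P4HA1, PLOD2), regulate pH (CA9) and recruit vessels (VEGFA). The same genes can be raised in dense culture or by other signals, and HIF1A itself is controlled mainly at the protein level, which RNA counts do not show.

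The promoters of 4 score genes are shown because the genes were read together, and because CA9 and PLOD2 were the score genes that differed most in level between RES-B and LNCaP members apart from NDUFA4L2. Each window runs from 250 bases before the annotated start to 50 after it, 5' to 3' on the strand of the gene (RefSeq, GRCh38.p14), with ACGTG on either strand in capitals.
CA9 (chr9:35673678-35673977, + strand): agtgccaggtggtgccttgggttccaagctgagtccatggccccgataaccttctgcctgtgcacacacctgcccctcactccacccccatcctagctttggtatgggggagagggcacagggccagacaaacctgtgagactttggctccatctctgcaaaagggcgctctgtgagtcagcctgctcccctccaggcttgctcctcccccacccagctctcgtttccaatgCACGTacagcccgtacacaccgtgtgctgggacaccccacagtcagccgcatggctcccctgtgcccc
P4HA1 (chr10:73096817-73097116, - strand): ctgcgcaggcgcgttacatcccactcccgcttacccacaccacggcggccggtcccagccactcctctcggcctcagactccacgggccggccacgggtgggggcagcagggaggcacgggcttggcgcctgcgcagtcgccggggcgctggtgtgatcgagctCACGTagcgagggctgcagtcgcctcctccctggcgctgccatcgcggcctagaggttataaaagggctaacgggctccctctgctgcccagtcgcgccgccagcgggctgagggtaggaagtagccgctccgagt
BNIP3 (chr10:131981874-131982173, - strand): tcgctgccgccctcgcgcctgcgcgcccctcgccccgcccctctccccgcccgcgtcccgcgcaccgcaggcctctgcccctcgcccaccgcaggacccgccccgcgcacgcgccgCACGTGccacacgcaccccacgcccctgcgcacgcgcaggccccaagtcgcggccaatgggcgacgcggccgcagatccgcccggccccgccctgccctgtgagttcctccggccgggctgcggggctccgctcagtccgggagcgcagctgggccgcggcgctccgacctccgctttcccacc
PLOD2 (chr3:146161135-146161434, - strand): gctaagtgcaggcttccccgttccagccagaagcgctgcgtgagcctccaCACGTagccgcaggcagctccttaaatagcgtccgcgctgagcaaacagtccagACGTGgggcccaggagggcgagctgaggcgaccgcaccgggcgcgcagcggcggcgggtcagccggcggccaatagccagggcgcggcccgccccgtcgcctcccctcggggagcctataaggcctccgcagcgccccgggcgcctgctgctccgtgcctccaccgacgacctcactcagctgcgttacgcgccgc
In CA9, which encodes the carbonic anhydrase often used as a marker of hypoxic tumour cells, the match began 18 bases before the start. A CACGTG stretch, as in BNIP3, holds the motif on both strands, and these overlapping matches were counted as 1 window. Of the 9 score genes 7 had a window in the table, and 6 of the 7 held ACGTG, the exception being PFKP. Among the 51 hypoxia-induced genes outside the score, 46 had a window and 47.8% of these held ACGTG, against 29.4% of the 5397 windows of genes tested below and 21.6% of all 27305 windows. For GCGTG the shares were 57.1% of the 7 score gene windows, 56.5% of the 46, 54.2% and 36.3%. A match describes letters and does not show that a factor is bound.

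Hypoxia-program cells were found in every library, at shares that differed widely. They made up 8.22% of cells in LNCaP (166 of 2019, 95% interval 7.06 to 9.51%), 8.92% in LNCaP-ENZ48 (407 of 4565, 8.10 to 9.78%), 2.94% in RES-A (136 of 4629, 2.47 to 3.47%) and 19.7% in RES-B (836 of 4239, 18.5 to 21.0%). Over all kept cells, the intervals of LNCaP and LNCaP-ENZ48 overlapped, and those of RES-A and RES-B lay below and above both. With LNCaP first, then LNCaP-ENZ48, RES-A and RES-B, the order of every series of 4 values below, the shares were 9.36, 9.97, 3.74 and 20.8% with all cells thinned to 5000 UMIs, 9.56, 11.1, 2.44 and 17.3% with the score built without BNIP3 and 7.87, 8.84, 2.56 and 19.9% among cells called G1. RES-A was lowest and RES-B highest under each of these. Among cells of 8000 to 16000 UMIs the shares were 22.8, 10.4, 3.29 and 19.4%, with LNCaP not below RES-B. LNCaP had 114 cells there (interval 15.5 to 31.6%), toward the low end of a library with a median of 26502 UMIs per cell. The lower limit set by the study for LNCaP was 16000 UMIs, so these cells lay below it. Unlike cells are thus compared in this range.

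**Figure D1:**
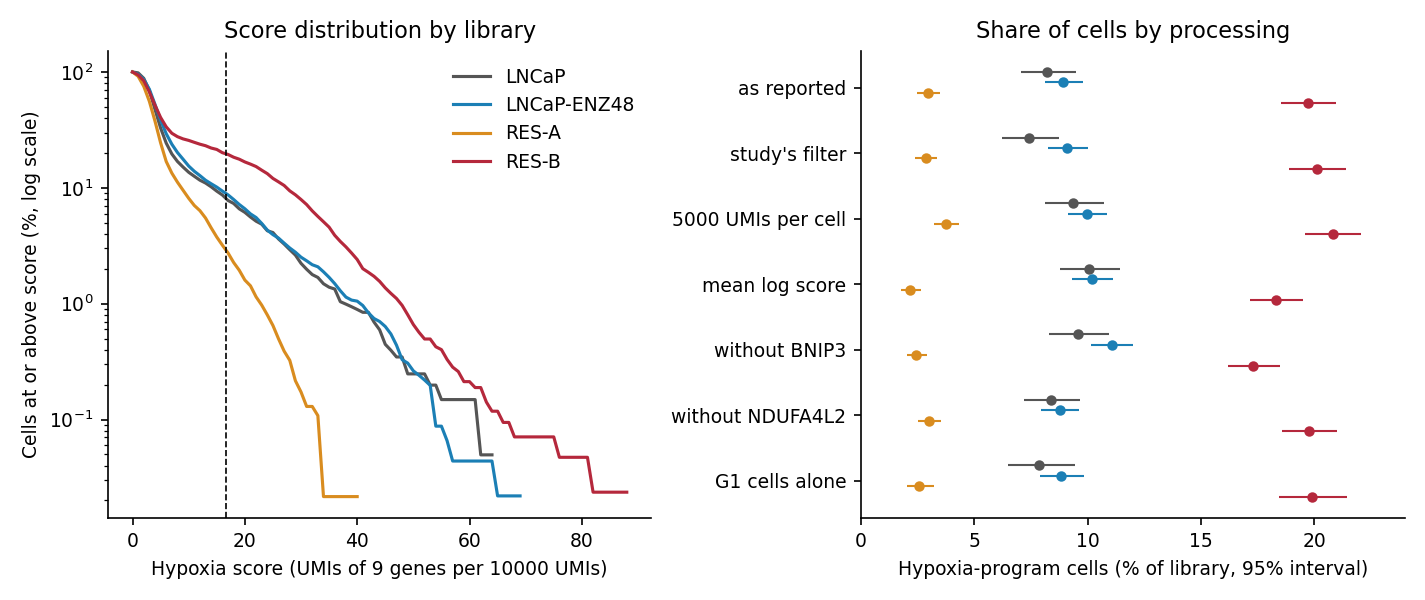
Left, percent of cells (log scale) at or above each hypoxia score in the 4 libraries, with the membership threshold dashed. Right, percent of cells chosen with 95% binomial intervals under the settings named at the left. At a score of 10 or more, RES-B held 25.7% of its cells and RES-A 8.12%, and RES-A has the lowest and RES-B the highest share under each setting drawn.

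The middle of the score distribution differed little between libraries, and its upper part differed more. Median scores were 3.87, 4.14, 3.30 and 4.13. At the 75th percentile they were 5.91, 6.73, 4.95 and 10.7, and at the 90th 14.2, 15.1, 8.75 and 27.4. In cells thinned to 5000 UMIs the variance of the summed score UMIs was 5.10, 4.91, 2.58 and 7.27 times the mean, against 1 if the cells differed by counting alone. A score of 20 or more was reached by 6.14, 6.59, 1.60 and 16.7% of cells.

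The lowest member scored 16.63 and the highest cell outside 16.59, the 10 members just inside had a median of 16.68 and the 10 cells just outside one of 16.56, and 381 cells lay within 10% of the threshold. Members are defined by a range of the score, and whether they form a separate type was not tested. Of the 1545 members, 1407 were also among the 1700 cells at or above the corresponding threshold in thinned cells.

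All 9 score genes were used to choose the cells, so their levels show how each library reached a high score. Levels are counts per 1000000 UMIs (CPM) over the summed UMIs of a set of cells, and ratios are log2 CPM of members over other cells of the same library with the interval in brackets. BNIP3, a receptor for the removal of mitochondria (ENSG00000176171, chromosome 10, 131967684 to 131981967), gave 69.6% of all score UMIs. Its level in members was 1723, 1684, 1686 and 2046 CPM, against 313, 325, 264 and 308 CPM in other cells. Members of RES-B had the most, other cells of RES-A the least, and the ratios were 2.46 [2.42, 2.50], 2.37 [2.34, 2.41], 2.67 [2.61, 2.74] and 2.73 [2.70, 2.76].

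NDUFA4L2, which encodes a mitochondrial protein that lowers complex I activity in hypoxia (chromosome 12, 57234903 to 57240715), marked members in both LNCaP libraries and in neither resistant line. It was at 152 and 153 CPM in members of LNCaP and LNCaP-ENZ48, against 4.04 and 5.06 CPM in other cells (ratios 5.23 [5.00, 5.47] and 4.92 [4.73, 5.11]). In RES-A it was at 2.01 CPM in members (3 UMIs) and 1.71 in other cells (0.23 [-2.08, 1.82]), and in RES-B at 2.24 (21 UMIs) and 2.05 CPM (0.13 [-0.63, 0.82]). On the log2 scale, members of RES-A and RES-B differed from LNCaP members by -6.24 [-8.52, -4.69] and -6.08 [-6.79, -5.46]. Even in LNCaP only some members had the gene, 50 of 166 having a UMI, and the 10% of members with most UMIs of it held 75.7% of its UMIs. In LNCaP-ENZ48 117 of 407 members had one and the top 10% held 70.7%. Thinned to 5000 UMIs, 20.5, 23.6, 0.735 and 1.32% of members had a UMI of NDUFA4L2 against 1.40, 2.41, 0.757 and 0.940% of other cells.

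PLOD2 and CA9 had their highest levels in RES-B members. PLOD2, a lysyl hydroxylase of collagen (chromosome 3, 146035139 to 146163725), was at 17.6, 14.9, 16.7 and 77.7 CPM in members and 0.289, 0.506, 0.962 and 4.24 CPM in other cells. Thinned to 5000 UMIs, 9.04, 7.37, 9.56 and 31.7% of members and 0.162, 0.289, 0.556 and 1.94% of other cells had a UMI of PLOD2. RES-B stood above the others in both sets of cells, with a log2 difference from LNCaP of 2.14 [1.78, 2.53] in members and 3.88 in other cells. The ratio of members to other cells was therefore no larger in RES-B (4.20 [3.97, 4.43]) than in LNCaP (5.93 [5.11, 6.85]).

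CA9 (chromosome 9, 35673928 to 35681159) had 3 UMIs in LNCaP members (0.80 CPM) and 0 in the other cells of that library, so no fold is given there. It was at 3.68 CPM in LNCaP-ENZ48 members (18 UMIs), at 12.7 CPM in RES-A members (19 UMIs) and at 13.7 CPM in RES-B members (128 UMIs), against 0.0158, 0.560 and 0.455 CPM in other cells. The ratios were 7.86 [5.20, 13.24], 4.50 [3.60, 5.37] and 4.91 [4.25, 5.63], the first of them resting on 1 UMI in other cells. A UMI of CA9 was seen in 3, 17, 19 and 108 members, so that most members of each library had none. RES-A, with the fewest members, had CA9 at a level near that of RES-B.

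The remaining 5 score genes were higher in members of each library. NDRG1, induced by hypoxia and, in prostate cells, by androgen, was at 161, 154, 62.2 and 198 CPM in members against 21.3, 21.4, 8.71 and 20.4 in other cells. MIR210HG, the host transcript of the hypoxia microRNA miR-210 (chromosome 11, 565657 to 568457), was at 94.7, 104, 36.1 and 43.9 CPM against 9.68, 11.6, 3.55 and 4.99. Both resistant lines had less MIR210HG than LNCaP, by a log2 difference of -1.39 [-1.83, -0.97] (RES-A) and -1.11 [-1.32, -0.90] (RES-B) in members and of -1.45 and -0.96 in other cells. P4HA1, a collagen prolyl hydroxylase subunit (chromosome 10, 73007217 to 73096974), was at 254, 226, 111 and 182 CPM against 39.6, 41.2, 34.7 and 37.3. PFKP, a phosphofructokinase (chromosome 10, 3066333 to 3137718), had ratios of 2.36, 2.20, 1.80 and 2.55, and ALDOC, an aldolase (chromosome 17, 28573115 to 28576948), of 2.23, 2.22, 1.64 and 1.86. For P4HA1 (2.68, 2.45, 1.68 and 2.29), PFKP and ALDOC the lowest ratio was that of RES-A.

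**Figure D2:**
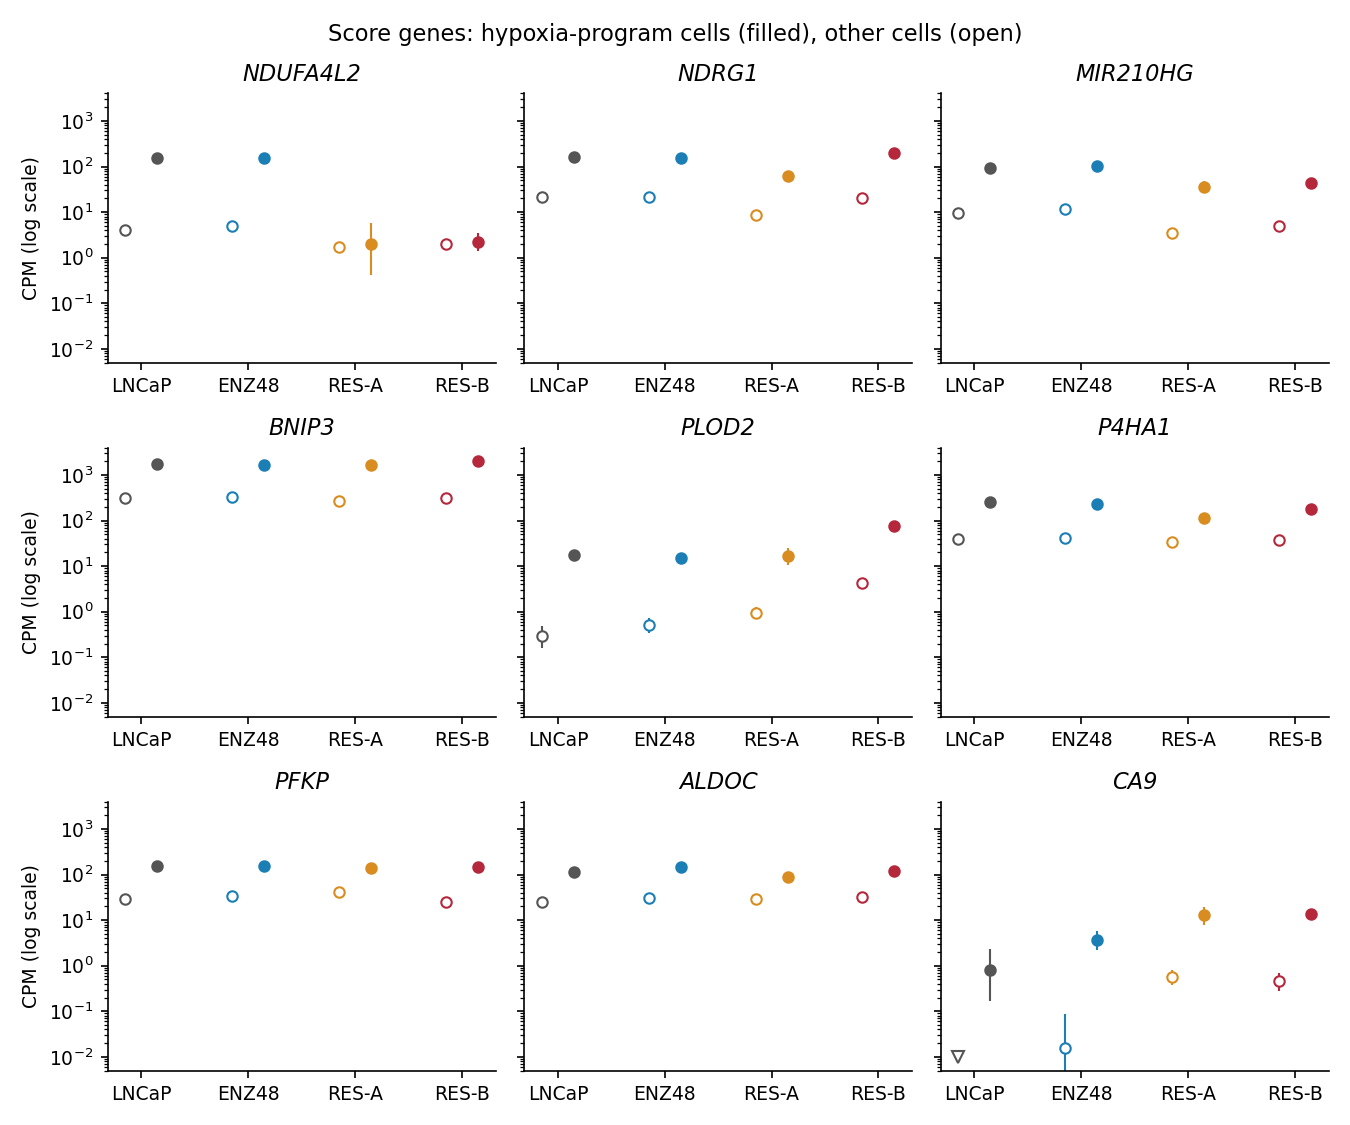
CPM (log scale) of the 9 score genes in hypoxia-program cells (filled) and other cells (open) of each library, with 95% Poisson intervals of the counts and a triangle for 0 UMIs. NDUFA4L2 separates the sets in the 2 LNCaP libraries alone, and PLOD2 and CA9 are highest in RES-B members.

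A gene that helps to choose cells is pushed up in them, so the score genes were also read where they had not been used. With cells chosen on a random part of each cell's UMIs and levels read from the rest, the ratios of BNIP3 were 2.36, 2.26, 2.43 and 2.61 and those of P4HA1 2.58, 2.34, 1.35 and 2.12. With cells chosen by the other 8 genes, BNIP3 had 2.25, 2.04, 2.08 and 2.36 and PLOD2 5.67, 4.65, 3.88 and 4.03. Chosen that way, CA9 was at 4.16 [3.20, 5.05] in RES-A and 4.44 [3.84, 5.07] in RES-B, and NDUFA4L2 at 5.19 in LNCaP and 4.42 in LNCaP-ENZ48. These ratios were smaller than those above for BNIP3 and for P4HA1 in each library. With the random parts, some other ratios were smaller and some were not, such as PLOD2 in LNCaP-ENZ48 (5.19 against 4.88) and CA9 in RES-A (4.60 against 4.50). NDUFA4L2 in RES-A went from 0.23 to -0.45 [-5.78, 2.10]. Score genes were chosen with earlier results of these data known, and the cells are the same, so the direction of these ratios is no test.

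Hypoxia-induced genes that took no part in the score were higher in the same cells. Of 51 such genes in 5 groups, 39 reached 10 CPM in members or other cells of every library. Their median ratio was 1.54, 1.33, 0.86 and 1.53, beside -0.10, -0.06, -0.02 and -0.03 over all 6708 genes that reached this level. A ratio of at least 0.5 was found for 32, 32, 32 and 37 of the 39, where 3.56, 3.56, 4.16 and 5.07% of all genes tested had one. None had a ratio of at most -0.5, where 9.29, 6.04, 4.49 and 3.01% of all genes did. At least 0.5 in all 4 libraries was reached by 85 genes (1.27% of those tested), among them 31 of the 39. A gene could reach 10 CPM through members alone, and with that level asked of all cells of a library together 29 of the 51 were left, their medians were 1.49, 1.26, 0.82 and 1.34, and 63 of 6457 genes reached 0.5 in all 4 libraries. Cells were chosen by genes of the same pathway, so these numbers describe the cells and are no test.

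Glycolysis held the most such genes, with 13 of 14 measured at 0.5 or more in every library (medians 1.71, 1.56, 0.87 and 1.69). Beside this count and those of the other hypoxia groups below, the share over all genes tested was 1.27%. PGK1, a kinase that makes ATP in glycolysis (chromosome X, 77910739 to 78129295), was at 2337, 1865, 851 and 1829 CPM in members and 290.3, 279, 314 and 373 in other cells (3.01 [2.97, 3.05], 2.74 [2.70, 2.78], 1.44 [1.35, 1.52] and 2.29 [2.26, 2.33]). LDHA, which turns pyruvate into lactate (chromosome 11, 18394560 to 18408425), was at 1735, 1863, 1188 and 1520.3 CPM against 324, 347, 333 and 278, with ratios of 2.42, 2.43, 1.84 and 2.45. Members of RES-A had the lowest level of both genes, while other cells of RES-A lay within the range of the remaining libraries. PFKFB4, which makes and breaks down the activator of phosphofructokinase, had ratios of 3.10, 2.61, 2.49 and 3.27. GPI had 2.21, 2.15, 0.77 and 1.63, ENO1 1.98, 1.88, 1.07 and 1.75, PKM 1.54, 1.47, 0.82 and 1.52 and GAPDH 1.34, 1.33, 0.76 and 1.30. GAPDH, ENO1, PGK1 and LDHA have processed copies elsewhere in the genome, so their levels are less certain than a ratio within a library.

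The glucose transporter SLC2A1 was the only measured glycolytic gene whose ratio in RES-A was above those of both LNCaP libraries, with 0.61 [0.23, 0.96], 0.53 [0.16, 0.89], 1.45 [0.91, 1.94] and 1.85 [1.61, 2.08]. Its level in members was 18.9, 14.5, 23.4 and 26.6 CPM, against 12.4, 10.0, 8.59 and 7.39 in other cells. HK1, a hexokinase of most tissues, was the measured gene outside the count of 13 (0.31, 0.11, -0.17 and 0.65). HK2 and PFKFB3, the hypoxia-induced members of their families, were under 10 CPM in some library and had ratios of 1.38, 0.82, 0.20 and 1.56 and of 1.69, 1.14, 1.56 and 2.69. The lactate exporter SLC16A3 was at 7.74 CPM in LNCaP members and 0.385 in the other cells (4.33 [3.46, 5.23]), at 4.70 and 0.411 in LNCaP-ENZ48 (3.51 [2.64, 4.38]), and had 0 and 2 UMIs in members of RES-A and RES-B. SLC2A3, another glucose transporter, had at most 2 UMIs in a set of cells.

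Of mitochondrial targets, 4 of 5 measured were higher in all 4 libraries. These were the mitophagy receptor BNIP3L (1.88, 1.83, 1.63 and 1.91), FAM162A (1.66, 1.62, 0.77 and 1.53), the adenylate kinase AK4 (1.00, 0.93, 0.91 and 1.23) and PDK1, which closes the entry of pyruvate to the tricarboxylic acid cycle (1.56, 1.22, 1.48 and 2.21). HIGD1A, an inner membrane protein named for its induction by hypoxia, had -0.24 [-0.50, 0.00], -0.48 [-0.71, -0.26], -0.37 [-0.71, -0.05] and -0.23 [-0.38, -0.08], so that it lay slightly below the other cells. COX4I2, a hypoxia-linked subunit of complex IV, had 0 UMIs in members of every library.

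Of 9 feedback and regulator genes, 6 were higher in all 4 libraries. These were the prolyl hydroxylases EGLN1 (1.29, 1.02, 0.91 and 1.27) and EGLN3 (1.86, 2.00, 0.82 and 1.17), which mark HIF1A for destruction, the histone demethylases KDM3A (1.54, 1.29, 1.37 and 1.84) and KDM4B (1.00, 0.88, 0.58 and 1.12), ANKRD37 (2.02, 1.47, 1.47 and 2.05) and the repressor BHLHE40 (2.36, 1.93, 1.5 and 2.47). KDM4B in RES-A was at -0.11 when the top 5% of cells were taken. MXI1, an antagonist of MYC, had 0.76, 0.75, 0.42 and 1.34 and CITED2, which competes with HIF1A for a coactivator, 0.37, 0.43, 0.49 and 0.77.

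DDIT4, an inhibitor of mTORC1 that answers hypoxia and other stresses, had the widest range of ratios among these 9 genes. Its level was 414, 455, 421 and 715 CPM in members and 418, 398, 299 and 227 CPM in other cells, with ratios of -0.02 [-0.09, 0.06], 0.19 [0.13, 0.26], 0.50 [0.38, 0.61] and 1.65 [1.61, 1.70]. RES-B had both the highest level in members and the lowest in other cells, and in LNCaP the sets of cells could not be told apart at this depth.

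Of secreted and matrix genes, 4 of 6 measured were higher in all 4. The vessel growth factor VEGFA (chromosome 6, 43770184 to 43786487) was at 86.2, 81.9, 76.9 and 185 CPM in members and 30.7, 27.5, 35.0 and 48.6 in other cells (1.49 [1.31, 1.66], 1.57 [1.41, 1.73], 1.14 [0.85, 1.41] and 1.93 [1.84, 2.02]). Thinned to 5000 UMIs, 28.9, 29.0, 30.1 and 54.1% of members had a UMI of VEGFA against 13.4, 12.2, 14.8 and 19.6% of other cells. RES-B members carried VEGFA most often, and other cells of every library carried it too. The collagen enzymes PLOD1 (1.65, 1.63, 1.12 and 1.37) and P4HA2 (1.22, 1.07, 1.05 and 1.31) and the oxidase ERO1A (1.89, 1.65, 0.52 and 1.91) completed the count. P4HA2 in LNCaP was at -0.16 among cells of 8000 to 16000 UMIs. STC2, a secreted glycoprotein of stress responses, had -0.36 [-0.60, -0.13], 0.21 [-0.01, 0.41], 0.68 [0.32, 1.01] and 0.82 [0.69, 0.96], and the ephrin ligand EFNA1 0.46, 0.30, 0.47 and 0.97.

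IGFBP3, an insulin-like growth factor binding protein, was under 10 CPM in the remaining libraries and at 36.4 CPM in RES-B members against 23.0 in the other RES-B cells (0.66 [0.48, 0.84]). The peptide hormone ADM was at 5.51 CPM in LNCaP-ENZ48 members against 1.17 (2.24 [1.54, 2.89]) and had 3, 0 and 2 UMIs in members of LNCaP, RES-A and RES-B. ANGPTL4 had 6, 5, 0 and 1 UMIs in members and LOX 1, 0, 0 and 0.

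In the last group, 4 of 5 measured were higher in all 4. GBE1, the glycogen branching enzyme, had 2.01, 1.39, 0.68 and 1.70, TMEM45A 2.58, 2.32, 1.33 and 2.36, C4orf3 1.77, 1.67, 0.86 and 1.64 and INSIG2, which holds the sterol sensor in the endoplasmic reticulum, 1.5, 0.96, 1.1 and 1.31. INSIG2 was at 38.4, 38.4, 68.9 and 263 CPM in members and 13.6, 19.8, 32.2 and 106 in other cells, so that other RES-B cells lay above the members of the remaining libraries. CA12, a carbonic anhydrase, had 0.15, 0.23, 0.28 and 0.24. Under 10 CPM in some library were VLDLR, a lipoprotein receptor (1.00, 0.81, 0.77 and 1.60), and the glycogen synthase GYS1 (0.38, 0.43, 0.38 and 0.70), and PPP1R3C had 0 UMIs in members of every library.

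**Figure D3:**
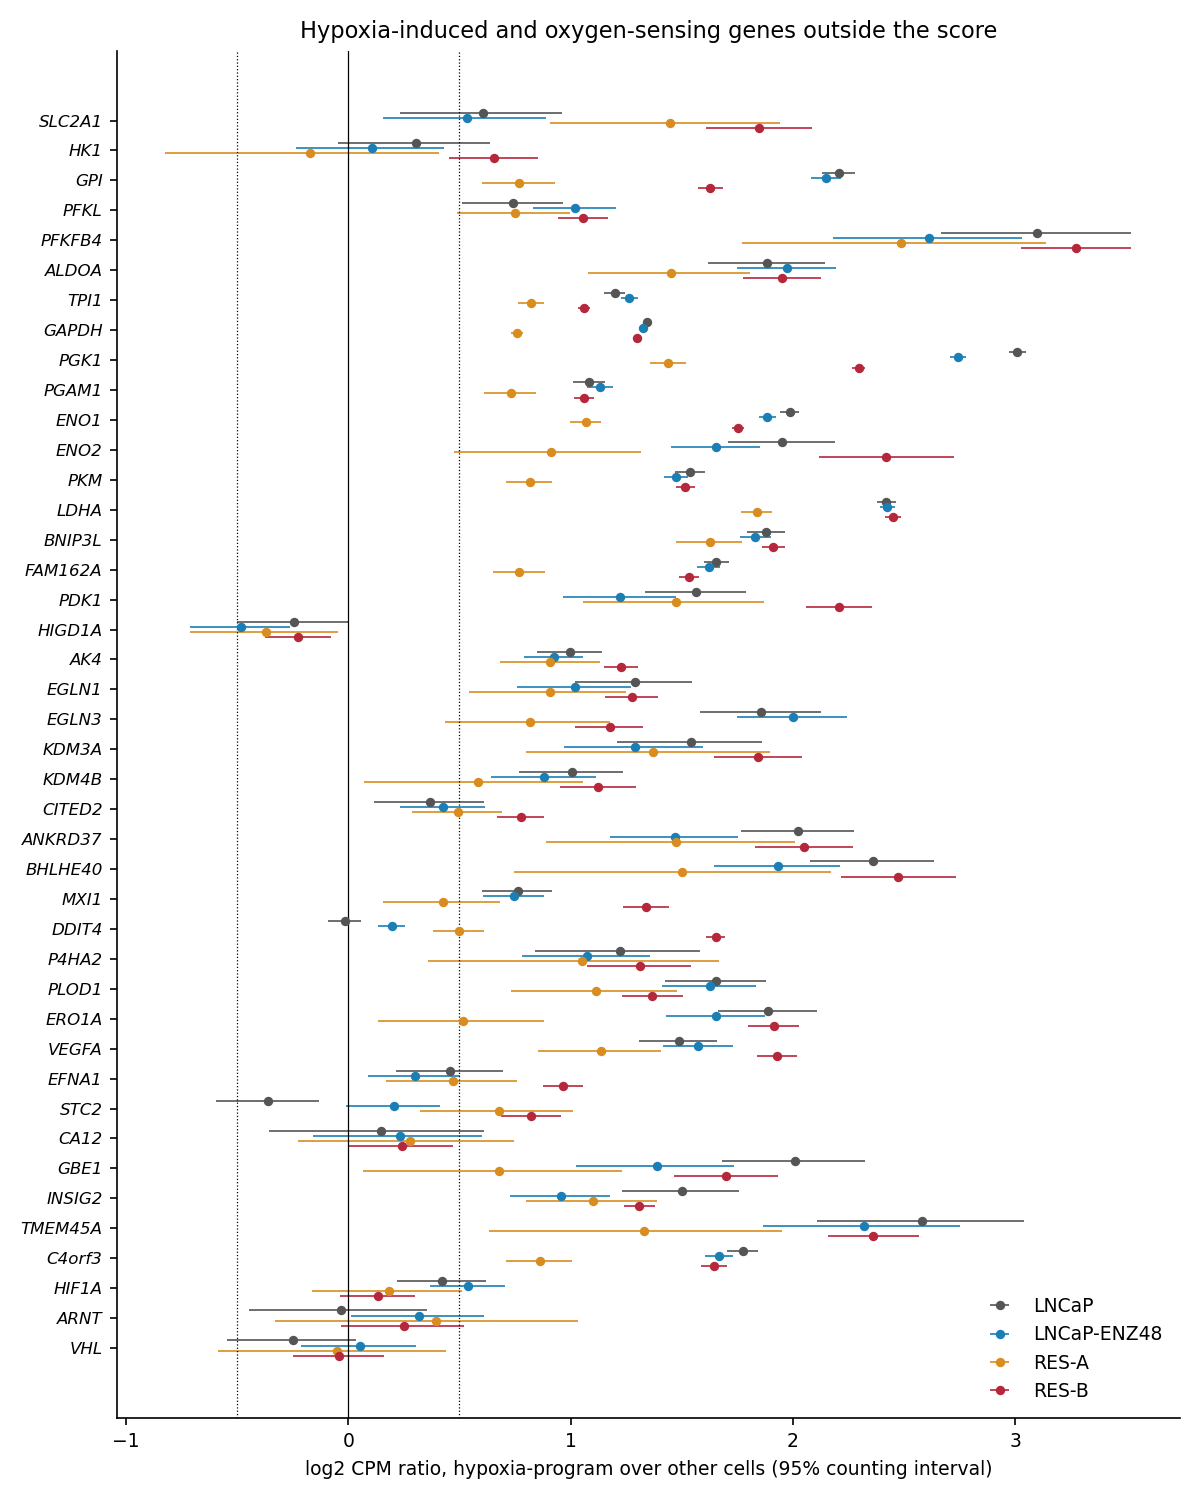
Log2 CPM ratio of hypoxia-program over other cells for the hypoxia-induced genes outside the score and the oxygen-sensing genes that reached 10 CPM in every library, with 95% counting intervals and 1 colour per library. RES-A lies left of the other libraries for most glycolytic genes, such as PGK1 (1.44), and VHL lies between -0.25 and 0.05.

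Of 7 oxygen-sensing genes 3 were measured, with ratios of at most 0.54. HIF1A was at 60.0, 66.0, 50.8 and 36.8 CPM in members against 44.8, 45.4, 44.8 and 33.6 (0.42 [0.22, 0.62], 0.54 [0.37, 0.70], 0.18 [-0.17, 0.51] and 0.13 [-0.04, 0.30]). Its partner ARNT had -0.03, 0.32, 0.39 and 0.25 and VHL -0.25, 0.05, -0.05 and -0.04. EPAS1, which encodes HIF2A, was at 0.533, 0.204, 0.669 and 1.07 CPM in members, and HIF3A had 0 UMIs in members of every library. HIF1AN, an asparaginyl hydroxylase that acts on HIF1A, was at 10.1, 5.92, 7.36 and 10.5 CPM in members against 7.16, 6.94, 8.06 and 8.28, and EGLN2 had 2, 2, 0 and 2 UMIs in members.

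RES-A members had the lowest median score and, set against LNCaP members, the lowest median over the hypoxia genes outside it. Their median score was 20.5, against 24.9, 23.6 and 27.5 in members of LNCaP, LNCaP-ENZ48 and RES-B, 1 threshold serving all libraries. The score chose the members, so its level in them follows in part from the rule. Set against LNCaP members, the median log2 difference over the 39 genes was -0.24 in RES-A members and 0.16 in its other cells, where all genes tested had 0.09 and 0.01. For LNCaP-ENZ48 it was -0.07 in members and -0.02 in other cells, and for RES-B 0.46 and 0.30, beside 0.18 and 0.09 over all genes. GAPDH in RES-A was above LNCaP by a log2 difference of 0.40 [0.37, 0.43] in members and 0.98 in other cells. PGK1 in RES-A was at -1.46 [-1.54, -1.37] in members and 0.11 in other cells. The 3 differences share the LNCaP library.

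Members had fewer UMIs than the other cells of their library. Median UMIs were 22042 against 26846 in LNCaP, 11078 against 14213 in LNCaP-ENZ48, 10939 against 12239 in RES-A and 10296 against 12983 in RES-B. In RES-B members were 58.7% of the 271 cells with 5000 to 8000 UMIs, 19.4% at 8000 to 16000 and 10.2% at 16000 to 32000, and in LNCaP-ENZ48 they were 30.1, 10.4 and 3.49% over the same ranges. In RES-A they were 4.43, 3.29 and 0.647%, and in LNCaP 5.66% of 53 cells, 22.8% and 9.04%, so that in LNCaP the share was not highest in the lowest range. The part of UMI number in the differences was not tested, and within cells of 8000 to 16000 UMIs the medians of the hypoxia genes outside the score were 1.39, 1.47, 0.87 and 1.62. At 5000 UMIs a cell, members had a median of 1685, 1680, 1778 and 1840 genes and other cells 1750, 1697, 1791 and 1849.

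Mitochondrial RNA was a smaller part of the counts in members. Medians over cells of the share of UMIs from mitochondrially encoded genes were 6.88 against 9.84 in LNCaP, 7.30 against 9.49 in LNCaP-ENZ48, 9.98 against 10.4 in RES-A and 9.13 against 12.7 in RES-B, in percent. Of the 13 transcripts 7, 2, 1 and 8 had ratios of at most -0.5, where 9.29, 6.04, 4.49 and 3.01% of all genes tested did, so that the 1 in RES-A is near the share over all genes. MT-ND2, a complex I subunit, had -0.77, -0.43, -0.22 and -0.72, and MT-ND6, encoded on the opposite strand, 0.05, -0.18, -0.07 and 0.00. MT-ND4L was among the 10 genes (0.149% of those tested) at or under -0.5 in all 4 libraries. The 73 nuclear genes of the respiratory chain had medians of -0.16, -0.15, -0.10 and -0.21, with ATP5MC1, of the ATP synthase ring, at -0.45, -0.53, -0.25 and -0.58. The 15 genes of the tricarboxylic acid cycle had medians of -0.18, -0.19, -0.08 and -0.25. Cells were filtered on this share, and its part in the differences was not tested.

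Cells called G1 were more frequent among members, at 71.7 against 64.2 in LNCaP, 86.0 against 75.7 in LNCaP-ENZ48, 69.1 against 61.3 in RES-A and 71.2 against 65.3 in RES-B, in percent of cells thinned to 5000 UMIs. The intervals of members and other cells overlapped in LNCaP (64.2 to 78.4 against 62.0 to 66.4). They also overlapped in RES-A (60.6 to 76.8 against 59.8 to 62.7), and not in LNCaP-ENZ48 or RES-B. S phase genes (21 measured) had medians of -0.50, -0.72, -0.18 and -0.05, with 10, 11, 2 and 1 at -0.5 or lower. G2/M genes (45 measured) had medians of -0.30, -0.48, -0.34 and 0.07, with 12, 19, 15 and 0 at -0.5 or lower, beside 9.29, 6.04, 4.49 and 3.01% of all genes tested. For S phase the counts in RES-A and RES-B are near the share over all genes. FEN1, a nuclease of DNA replication, had -1.39 [-1.91, -0.91], -1.25 [-1.81, -0.74], -0.14 [-0.65, 0.32] and -0.27 [-0.48, -0.05], and MCM4, a subunit of the replicative helicase, -0.88, -1.26, -0.20 and -0.08. The mitotic kinase CDK1 had -0.72 [-0.94, -0.50], -1.11 [-1.37, -0.86], -0.21 [-0.38, -0.04] and 0.57 [0.48, 0.65]. In RES-B the summed S phase genes were at -0.10 [-0.13, -0.07] and the summed G2/M genes at 0.08 [0.06, 0.09], and 11.5% of its members were called S against 15% of its other cells. With members and other cells taken from G1 calls alone, CDK1 was at 0.53 in LNCaP and 0.14 in LNCaP-ENZ48, the opposite direction. CDK1 is on the G2/M list that called the phase, so these cells were chosen in part by its own counts.

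Amino acid stress genes, targets of the transcription factor ATF4, were lower in members of both LNCaP libraries. Of 25 measured, 21, 16, 0 and 1 had ratios of at most -0.5 (medians -0.84, -0.59, -0.08 and -0.08), beside 9.29, 6.04, 4.49 and 3.01% of all genes tested. At 0.5 or more were 0, 0, 0 and 3, beside 3.56, 3.56, 4.16 and 5.07% of all genes tested. The genes in RES-B were ATF3 (1.17), SLC7A11 (0.64) and NUPR1, of which the first and second were chosen after their values were seen. TRIB3, a pseudokinase that limits ATF4, was at 46.1, 37.8, 44.8 and 102 CPM in members and 121, 81.5, 56 and 94.8 in other cells. DDIT3, which encodes the factor CHOP, had -1.26 [-1.48, -1.05], -1.09 [-1.30, -0.89], 0.04 [-0.19, 0.27] and 0.15 [0.06, 0.24]. CHAC1, which degrades glutathione, had -2.31 [-3.03, -1.68], -0.84 [-1.26, -0.44], 0.01 [-0.69, 0.63] and -0.65 [-0.98, -0.33], and PSAT1, of serine synthesis, -1.24, -0.68, 0.03 and -0.33. NUPR1, a chromatin-binding stress protein, had -0.07, 0.20, 0.10 and 0.66. The difference between the LNCaP libraries and the resistant lines was not tested, with 1 library each.

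Some lipid synthesis genes were higher in members of each library. Over 21 measured genes the medians were 0.31, 0.23, 0.02 and 0.47. At 0.5 or more were 8, 8, 4 and 10 of them, beside 3.56, 3.56, 4.16 and 5.07% of all genes tested. In all 4 libraries 3 reached 0.5, beside 1.27% of all genes tested. At -0.5 or lower were 0 in any library, beside 9.29, 6.04, 4.49 and 3.01%. SCD, the desaturase that makes oleate, was at 251, 221, 120.4 and 393 CPM in members against 76.5, 73.1, 70.8 and 93.2 (1.72, 1.60, 0.77 and 2.08). ACLY, which supplies acetyl-CoA from citrate, had 1.14, 1.31, 0.79 and 1.28, and the fatty acid synthase FASN 1.1 [0.98, 1.21], 0.80 [0.67, 0.92], 0.05 [-0.16, 0.25] and 0.93 [0.86, 1.00]. SC5D, of cholesterol synthesis, had -0.27, -0.21, -0.33 and -0.09 and the elongase ELOVL6 -0.38, 0.05, -0.15 and -0.18.

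Both measured metallothioneins, zinc-binding proteins of metal and oxidative stress, were higher in every library. MT2A (chromosome 16, 56608584 to 56609497) was at 3029, 2606, 714 and 4253 CPM in members against 1158, 887, 285 and 1458 (1.39, 1.56, 1.32 and 1.54), and MT1X at 741, 647, 169 and 1153 against 372, 244, 69.4 and 401 (1.00, 1.41, 1.29 and 1.52). RES-A members had less MT2A than the other cells of the remaining libraries, although the ratio was close to theirs.

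**Figure D4:**
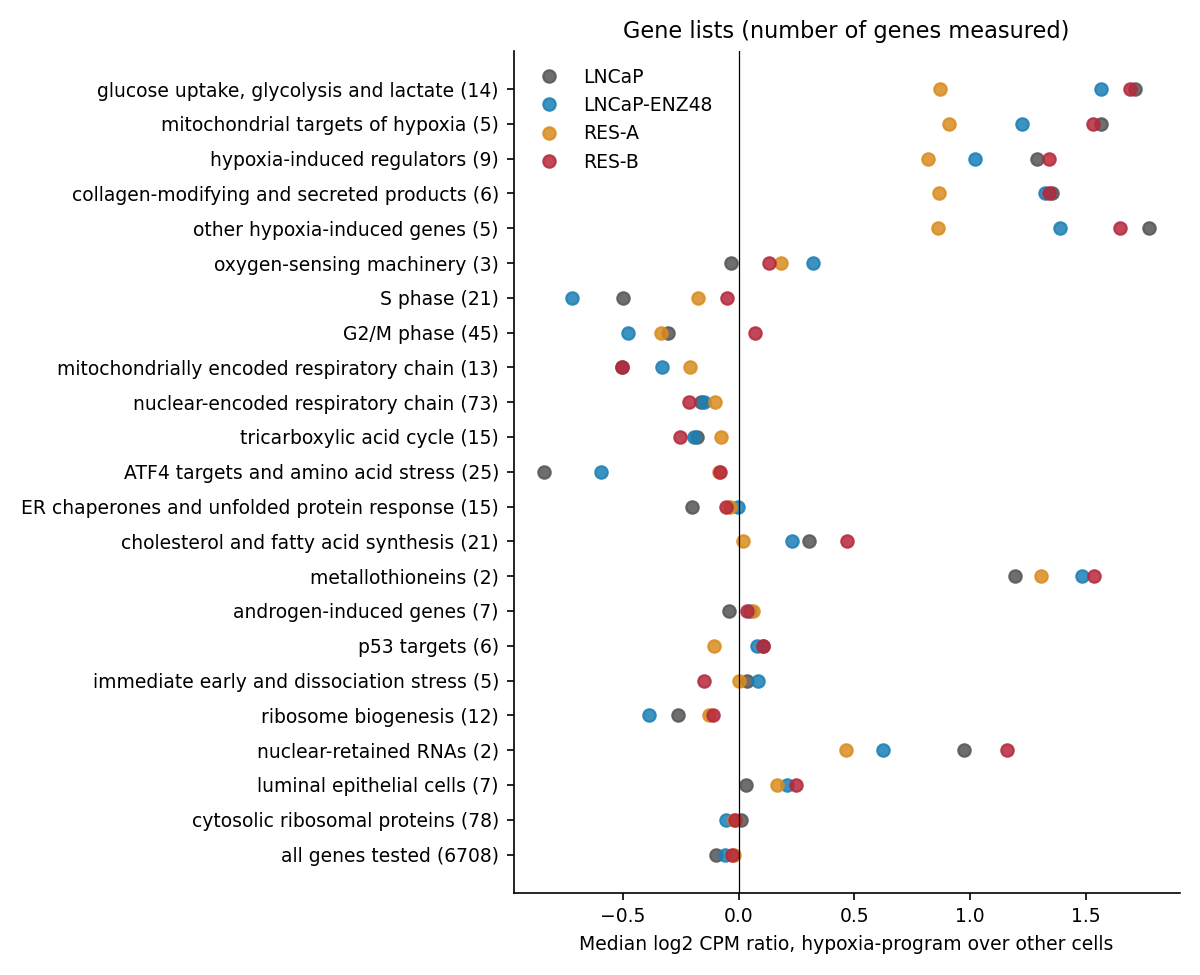
Median log2 CPM ratio of hypoxia-program over other cells for each gene list, with 1 point per library and the number of measured genes beside its name. Hypoxia lists and metallothioneins lie right of 0 in each library, and the amino acid stress list is at -0.84 in LNCaP and -0.08 in RES-B.

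Outside the score and the hypoxia lists, the 12 genes with the highest ratio in their lowest library, among those at 50 CPM or more, began with MT2A. PIAS2, a ligase for the small modifier SUMO, was at 109, 75.1, 72.2 and 142 CPM in members against 35.9, 30.7, 25.4 and 38.0 (1.60, 1.29, 1.51 and 1.90), so that members of each library lay above the other cells of all. The desmosomal protein DSP had 1.37, 1.43, 1.00 and 1.64, the creatine kinase CKB 1.40, 1.58, 0.79 and 1.40 and the stress cytokine GDF15 0.77, 0.74, 0.83 and 0.92. CCNG2, a cyclin of growth arrest, had 0.88, 0.69, 0.94 and 1.47, the kinase MKNK2 0.89, 0.61, 0.63 and 1.29, the tRNA synthetase DARS 0.65, 0.84, 0.71 and 1.13 and DPCD 0.91, 0.91, 0.59 and 0.80, and MT1X, ACLY and SCD were the others. GDF15 was at 6311, 3627, 562 and 476 CPM in members, a spread between libraries far wider than that between members and other cells.

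The 12 genes at the other end had ratios between -1.03 and -0.34. GPATCH4 was at 42.9, 31.4, 43.5 and 49.1 CPM in members against 81.3, 56.4, 75.8 and 93.2 (-0.92, -0.84, -0.80 and -0.93), COMTD1 had -0.83, -0.89, -0.84 and -0.62, the phosphatase PGP -0.83, -0.76, -0.56 and -0.86 and MT-ND4L -0.56, -0.54, -0.59 and -0.80. SEPHS2, of selenium metabolism, had -1.03, -0.43, -0.37 and -0.41, and the proteasome activator subunit PSME2 -0.52, -0.50, -0.39 and -0.54. NTMT1, TMEM106C, NUDT1, FAM173A, MLST8 and PAXX had ratios between -0.71 and -0.34.

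The kallikreins KLK3, which encodes prostate-specific antigen, KLK2 and KLK4 had higher levels over the summed members of LNCaP, LNCaP-ENZ48 and RES-B. They fall outside the rule for naming genes and were chosen after their values were seen. KLK3 was at 1908 CPM in LNCaP members against 648 in other cells (1.56 [1.52, 1.60]), at 444 against 66.7 in LNCaP-ENZ48 (2.74 [2.66, 2.81]) and at 54.5 against 25.7 in RES-B (1.09 [0.93, 1.24]). In RES-A it had 1 UMI in each set, and KLK2 and KLK4 had 0 in members and 5 and 17 in other cells. KLK2 had 1.67 [1.62, 1.72], 2.90 [2.76, 3.04] and 1.59 [1.43, 1.75] in the same 3 libraries, and KLK4 0.76 [0.65, 0.86], 1.31 [1.14, 1.47] and 0.95 [0.85, 1.06]. In RES-B few cells carried KLK3, with a UMI in 17.3% of members and 18.1% of other cells (12 and 8.82% at 5000 UMIs a cell), and the 10% of members with most UMIs of it held 88.1% of its UMIs. Within cells of 8000 to 16000 UMIs the KLK3 ratios were 0.92, 2.91 and 1.11. KLK2 and KLK3 are near copies, so their counts are uncertain as levels. The 7 androgen-induced genes measured in every library, which leave the kallikreins out, had medians of -0.04, 0.05, 0.06 and 0.04. Of these, the kinase CAMKK2 had 0.46, 0.37, -0.35 and 0.35.

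Some genes, 3 in each direction per library, had the ratios farthest from those in LNCaP. CAMK2N1, an inhibitor of a calcium-dependent kinase, had 1.37, 0.51, 0.68 and 0.16 and AIDA 1.28, 0.71, 0.23 and 0.09, with other cells at 59.0, 214, 45.9 and 676 and 140.4, 397, 330.0 and 649 CPM. The creatine transporter SLC6A8 had 1.44, 1.00, 0.16 and 1.32. MAP1B, a microtubule-associated protein, had 0.25, 0.93, 0.94 and 1.08, MAT2A, which makes S-adenosylmethionine, -1.18, -0.63, -0.07 and -1.07, and the metalloreductase STEAP2 0.08, 0.11, 0.62 and -0.56. The epoxide hydrolase EPHX1 had -1.15, -0.49, -0.31 and -0.68, ANK3 -0.69, -0.05, 0.10 and -0.01 and the kinase subunit CKS1B 0.01, -0.56, -0.33 and 0.02. These genes were picked for their differences, which are given with no test.

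Markers of other cell types were near 0. The summed level of each of the basal, leukocyte, endothelial and fibroblast lists was at most 4.0 CPM in members of any library, and TP63, KRT5, PTPRC, CD3E and CDH5 had 0 UMIs in members and other cells of every library. All 7 luminal markers (among them KRT8, EPCAM and HOXB13) were measured in members and other cells of each library, with medians of 0.03, 0.21, 0.17 and 0.25 and none past 0.5 in either direction. Of all genes tested 3.56, 3.56, 4.16 and 5.07% were at 0.5 or more. At -0.5 or lower were 9.29, 6.04, 4.49 and 3.01%, so that 0 of 7 is near these shares. Members, in which all 7 were measured, carried the markers of the line. NEAT1, a nuclear RNA of paraspeckles, had 1.21, 0.77, 0.54 and 1.36, and the nuclear RNA MALAT1, at 49045, 58854, 22431 and 33629.9 CPM in members, 0.73, 0.47, 0.38 and 0.96. Nuclear RNA moved with membership, and its part in the other differences was not tested. The 78 cytosolic ribosomal protein genes measured had medians of 0.01, -0.05, -0.02 and -0.02, p53 targets 0.11, 0.08, -0.10 and 0.11, immediate early genes 0.03, 0.09, 0.00 and -0.15 and ribosome biogenesis genes -0.26, -0.38, -0.13 and -0.11. The sum of the 9 listed p53 targets was at 0.73, 0.68, 0.48 and 0.69, unlike their median. In LNCaP members GDF15 held most of it (6311 of 6585 CPM). The sum of the 11 listed immediate early genes in RES-B was at 0.44 [0.38, 0.49], opposite in sign to the median of the 5 measured. Of these 5, 2 were at 0.5 or more in RES-B, where 5.07% of all genes tested were. Of endoplasmic reticulum chaperones, SDF2L1 had -0.83, -0.42, -0.18 and -0.65 and XBP1, a factor of the unfolded protein response, 0.09, 0.27, 0.08 and 0.36.

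Along the score, the hypoxia genes outside it were highest at the top in each library. Cells of each library were ranked by score in 10 bins of equal size, and the summed CPM of a list in a bin was set against the whole library on the log2 scale. In the first, the eighth, the ninth and the last bin the hypoxia genes were at -0.41, -0.12, 0.34 and 1.31 in LNCaP and at -0.35, -0.10, 0.38 and 1.26 in LNCaP-ENZ48. In RES-A they were at -0.13, -0.04, 0.08 and 0.61, and in RES-B at -0.57, 0.24, 0.93 and 1.31. The eighth bin was above the first in each library, by most in RES-B, and above the library level in RES-B alone. Mitochondrially encoded RNA in the last bin was at -0.40, -0.30, -0.04 and -0.53, metallothioneins at 1.16, 1.25, 0.77 and 1.26, and lipid genes at 0.49, 0.53, 0.14 and 0.75. Amino acid stress genes were at -0.60, -0.34, -0.10 and 0.06 there.

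**Figure D5:**
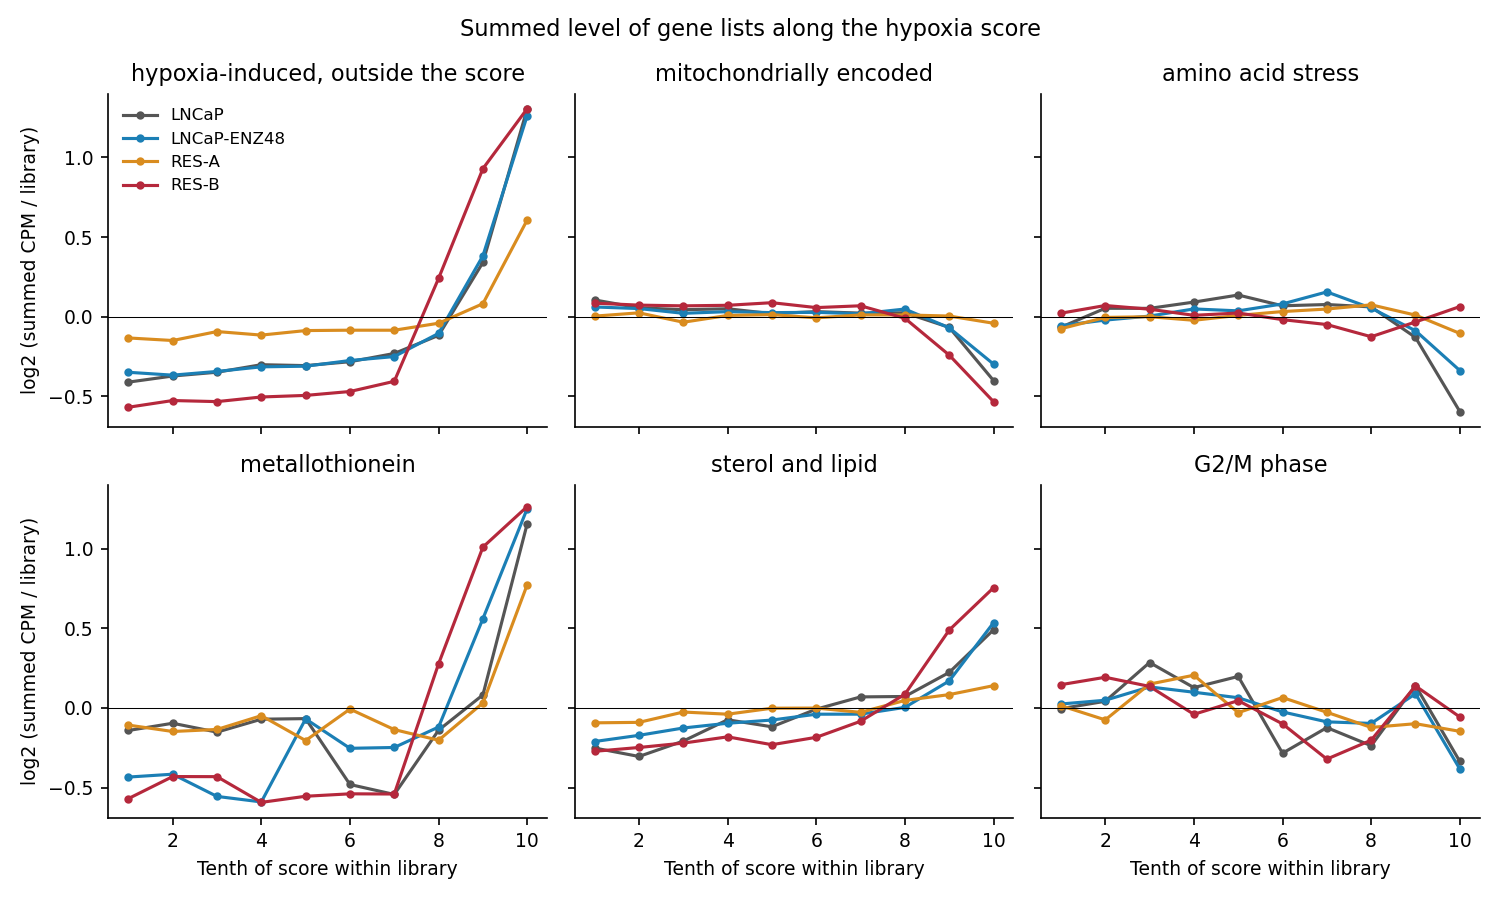
Log2 of the summed CPM of gene lists in each of 10 bins of the score within a library, over the same sum in the whole library, with 1 line per library. Hypoxia genes outside the score are highest in the last bin, at 1.31 in RES-B and 0.61 in RES-A, and mitochondrially encoded RNA reaches -0.53 in RES-B.

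Barcodes that did not pass the cell filter had a median of 2078 to 2841 UMIs and were not used further. Of these, 11.2, 7.69, 3.98 and 9.88% scored above the threshold.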

How the data were processed

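The 4 libraries, 1 per group, were grouped by sample title. The deposited values are UMI counts per gene and cell barcode, which the authors made from droplet 3' libraries of sorted living cells (Cell Ranger 3.0.2, a prebuilt GRCh38 reference). Cell Ranger counts reads placed in 1 gene, so near copies lose reads. From these counts, UMIs were summed over members and over other cells of each library and divided by all their UMIs (CPM). Levels have exact Poisson, ratios exact conditional binomial and shares exact Clopper-Pearson intervals (95%), which cover counting error only. With 1 library per group no test was run. A count of 0 was read against a floor of 3 UMIs.

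Of 17233 barcodes, 15452 had at least 1500 genes, at least 5000 UMIs and under 20% mitochondrial UMIs. Limits set by the study for each library left 1782, 4315, 4569 and 4061 cells (LNCaP first, then LNCaP-ENZ48, RES-A and RES-B). No doublet caller was run. Leaving out the cells of highest UMI count (0.8% per 1000 barcodes) was an alternative. Phase was called from S and G2/M gene lists in cells thinned to 5000 UMIs.

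Genes with at least 10 CPM in members or other cells of every library were compared (6708 of 33538). Named genes were the score, hypoxia and oxygen-sensing genes, the 12 highest and 12 lowest over all libraries at 50 CPM or more, up to 2 at each end of every other list, and 3 in each direction per library against LNCaP. Members and gene lists were chosen with earlier results of these data known. Positions are from GENCODE 44 (GRCh38). Other filters, thresholds, scores, scalings and minimum levels were tried. The ratio code was tested on simulated data (Python 3.11.15, numpy 2.4.6, scipy 1.17.1, pandas 2.3.3). Values of some genes on the lists are not reported here.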

Additional observations from a re-analysis of the deposited data

Results flagged for a closer look

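Among the genes named by rule, 6 had counting intervals of the ratio on opposite sides of 0 in LNCaP and in another library. The share of all genes tested with such intervals is not given. CDK1 and DDIT3 had been named for their large difference between RES-B and LNCaP. With 1 library per group the differences were not tested. CDK1 had -0.72 in LNCaP and 0.57 in RES-B, a difference of 1.28. DDIT3 had -1.26 and 0.15 (difference 1.41), and the tRNA synthetase TARS -0.37 and 0.08 (0.45). STC2 was at -0.36 in LNCaP, 0.68 in RES-A (1.04) and 0.82 in RES-B (1.18). SEL1L, of protein quality control in the endoplasmic reticulum, was at -0.33 in LNCaP, 0.48 in RES-A (0.81) and 0.40 in RES-B (0.73). NDUFB4, a complex I subunit, was at -0.07 in LNCaP and at 0.06, 0.36 and 0.33 in LNCaP-ENZ48, RES-A and RES-B (differences 0.12, 0.43 and 0.39).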

How the results depend on the processing

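Series of 4 values start with LNCaP and go on with LNCaP-ENZ48, RES-A and RES-B. The shares of cells moved by construction to 3.81, 3.83, 0.540 and 11.7% with the top 5% of cells and to 17.8, 21.4, 11.9 and 28.4% with the top 20%. They were 10.1, 10.2, 2.18 and 18.3% with the mean log value as score and 9.56, 11.1, 2.44 and 17.3% without BNIP3, and with cells scored on 5000 UMIs LNCaP-ENZ48 was at 9.97% and RES-A at 3.74%. Within 8000 to 16000 UMIs LNCaP, with 114 cells below the limit of the study, was at 22.8% and LNCaP-ENZ48 at 10.4%. The 85 genes at 0.5 or more in all libraries became 45 with the top 20%, 54 with the top 10% within each library, 163 with a minimum of 1 CPM and 35 with 50 CPM. The 10 at -0.5 or less became 31 with the top 5%, 0 with the top 20%, 37 at 1 CPM and 4 at 50 CPM. The median of hypoxia genes outside the score was 1.08 in LNCaP, 0.93 in LNCaP-ENZ48 and 1.29 in RES-B with the top 20%, 1.57 in LNCaP-ENZ48 at 50 CPM and 1.34 in RES-B with 10 CPM asked of all cells. In RES-B members over LNCaP members it was 0.70 with the top 10% within each library. Directions turned for KDM4B in RES-A with the top 5% (-0.11) and for CDCA2, a mitotic gene, in RES-A with the mean log score (0.052) and without BNIP3 (0.024). Among G1 calls, which were made from the S and G2/M lists that hold these genes, directions turned for the S phase median in LNCaP-ENZ48 (0.11), CDCA2 in LNCaP-ENZ48 (0.91) and RES-A (0.11), CDK1 in LNCaP (0.53) and LNCaP-ENZ48 (0.14), HMMR in RES-B (-0.20) and KIF20B in LNCaP (0.39) and RES-A (0.22). Among cells of 8000 to 16000 UMIs they turned for CDCA2 in LNCaP (0.32) and LNCaP-ENZ48 (0.21) and, in LNCaP, for DUSP1 (-0.16), FEN1 (0.25) and P4HA2 (-0.16). Of the other values for shares, counts of genes and hypoxia medians, 108 stayed within counting error or 1.5 times the count and none turned. Of the values for single genes and other lists, 8845 stayed within counting error, 1630 moved by more with no called value changing sign, and the 16 above turned. The causes were not tested. The UMI range, the minimum over all cells and a score without NDUFA4L2 were chosen after seeing the data. No paired analysis was possible because each group had 1 library. Depth limits genes of few UMIs, such as CA9 in LNCaP.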
